A study of Mus musculus with 8 samples.

Results

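Sorted Sertoli cells were compared with sorted pre-granulosa cells, the XY and XX supporting cells of the mouse gonad at embryonic day 13. The comparison uses 4 of the 8 arrays of the study, chosen by their labels: 2 of XX pre-granulosa cells and 2 of XY Sertoli cells. The other 4 arrays hold whole ovaries and whole testes of the same age, 2 of each, with 4 gonads pooled per sample, and no gonad array enters the difference. After removal of array controls and reduction to 1 probe set per gene, 18193 genes were compared. Both kinds of sorted sample came from strain C57BL6/J-Tg92 and were EGFP-positive cells, about 30000 per XX sample and about 22000 per XY sample. The 2 groups thus share the strain, the age and sorting by the reporter. They differ in their sex chromosomes, their cell type and the number of cells sorted. The cells are therefore those in which the reporter was on, in either sex, and the labels do not say what drives it. About 20 ng of total RNA was turned into biotinylated cDNA by the Ovation Biotin protocol, and about 2.5 µg of cDNA went onto each array. Nothing in the labels says whether replicate samples came from separate litters or sorts. Each p-value thus rests only on the spread between these replicate samples, pooled over all 8 arrays. With 2 arrays against 2, an exact permutation test cannot go below p = 0.333, and the number of arrays limits the precision.

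Supporting cells surround the germ cells of the fetal gonad and arise from a common precursor in both sexes. In XY gonads the Y-linked factor Sry turns on Sox9, and the cells become Sertoli cells, which enclose germ cells in cords, secrete the hormone Amh that makes the Müllerian ducts regress, and signal through Dhh to the steroid-producing cells outside the cords. In XX gonads the Wnt pathway and Foxl2 prevail, the cells become pre-granulosa cells, and many of them leave the cell cycle with the inhibitor Cdkn1b long before follicles grow.

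Values are deposited log2 signals, differences are Sertoli minus pre-granulosa on that scale, and errors of differences are standard errors of the model unless stated otherwise. A gene is called when limma, fitted over all 8 arrays with 1 mean per group, gives a Benjamini-Hochberg adjusted p under 0.01, and "rose", "fell", "higher" and "lower" without a p refer to that call, except in counts of pairings of arrays, which use the values alone. Replicate arrays differed by a root mean square standard deviation of 0.531 among pre-granulosa and 0.428 among Sertoli arrays, more than the 0.299 of ovaries and 0.198 of testes, so the pooled spread is smaller than that of the sorted cells. A second fit with a variance weight per group allows for this, and the genes and list counts that lose calls with it are given beside the results or at the end. Sorted replicates correlated at 0.944 and 0.964 over genes, and arrays of different sorted groups at 0.907 to 0.931. The 3′ over 5′ signal, which grows when RNA is short or poorly copied, was, among the 4 sorted arrays, largest in pre-granulosa replicate 1 (3.08 log2 units for actin, 3.68 for Gapdh), lowest in pre-granulosa replicate 2 (1.70 and 1.24) and intermediate in the Sertoli arrays (2.17 and 2.51 for actin). The gonad arrays read 1.57 to 2.33 for actin and 0.72 to 1.55 for Gapdh.

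Of the 18193 genes, 485 were called (2.67%), with 294 higher in Sertoli cells (1.62%) and 191 lower (1.05%). With a weight per group 174 were called (0.956%), 109 higher (0.599%) and 65 lower (0.357%), and all 174 are among the 485. Over all genes the median difference was 0.04, and the values from the 5th to the 95th percentile ran from -1.15 to 1.38. Called genes had a median difference of 2.59 among the higher and -2.45 among the lower, and the smallest called differences were 1.05 and -1.18. A difference above 4 log2 units, in either direction, was seen in 86 genes, 50 of them higher in Sertoli cells and 36 lower, and 18 of the 86 were not called. The 2 groups of arrays did not overlap for 7884 genes (43.3%). Of these, 4408 were higher and 3476 lower in Sertoli cells in all 4 pairings of arrays. Non-overlap alone thus says little about a gene. The test cannot see small differences: on simulated data with the spread of these arrays, the procedure found 0.321% of true differences of 1 log2 unit, 33.8% at 2 units and 72.7% at 4 units for this comparison. Fewer cells of a kind in a sample and less RNA per cell cannot be told apart in these bulk samples.

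The sex chromosomes fitted the labels in all 4 arrays. Xist, the RNA that coats and silences an X chromosome, read 11.39 and 11.64 in the pre-granulosa arrays and 3.73 and 4.00 in the Sertoli arrays, and fell by 7.65 ± 0.23; a second of its probe sets was called (-6.46) and a further one was not (-4.13). The Y-linked translation factor gene Eif2s3y read 3.52 and 4.07 in the XX arrays and 10.18 and 10.39 in the XY arrays. Uty and Kdm5d, Y-linked genes of the histone demethylase families, rose by 5.43 ± 0.31 and 5.42 ± 0.41. No other of the 6 Y-linked genes measured was called, so the count is 3, and dimmer probe sets of them gave differences of 0.00 to 3.62. In XX arrays, which have no Y chromosome, the 9 probe sets of these 3 genes read up to 4.78, a guide to the level at which the array shows no transcript, and 61 called genes have their low group at or under it, counting a group as low when both its arrays are, so their differences are from background and not exact sizes. The genes named with their values here and under the closing observations include 20 of the 61: Eif2s3y, Uty, Kdm5d, Xist, Cbln4, Slc38a5, Bub1, Gdnf, Sox6, Adam12, Robo4, Serpina5, Slc9a2, Itgb8, Slc34a2, Col12a1, Calb1, Cep55, Agtr1a and Bmp5. For 9 more, Col14a1, Fbln2, Hmmr, Capn6, E2f7, Ereg, Pld1, Ccdc182 and Gpr155, the mean of the low group is under that level and 1 of its arrays is above it.

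Apart from the Y-linked genes, the genes highest above pre-granulosa cells among those called with and without a weight per group had varied roles. Dhh, the hedgehog ligand of Sertoli cells, read 5.17 and 6.39 in the pre-granulosa arrays against 12.35 and 12.19 in the Sertoli arrays. Rtn4rl1, a surface receptor of the Nogo receptor family, read 4.39 and 5.59 against 11.46 and 11.05. Col14a1, a collagen that associates with fibrils, read 3.33 and 5.33 against 10.39 and 10.23. For each of these genes both Sertoli arrays lay close together and far above both pre-granulosa arrays, of which replicate 1 was the lower. The differences were 6.49 ± 0.38 for Dhh, 6.27 ± 0.40 for Rtn4rl1 and 5.98 ± 0.58 for Col14a1 (adjusted p = 0.00134, 0.00142 and 0.00465 by limma). Ankrd63, an ankyrin repeat gene, read 4.85 and 4.84 against 10.74 and 10.30. Cbln4, a secreted cerebellin, read 3.40 and 3.67 against 8.68 and 9.31. Fgf13, an intracellular member of the FGF family that binds sodium channels, read 4.42 and 5.18 against 10.38 and 9.91. These rose by 5.68 ± 0.32, 5.46 ± 0.24 and 5.35 ± 0.30. Sh3gl2, an endophilin of vesicle endocytosis, rose by 5.03 ± 0.26 (its dimmer probe sets gave 1.19 and 0.63, not called), Ttyh1, a membrane protein gene of the tweety family, by 5.0 ± 0.30 and Nabp1, a single-stranded DNA binding protein of the DNA damage response, by 5.0 ± 0.29.

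Xist aside, the genes with the lowest differences included a growth factor, a Wnt ligand and several genes of signalling inside the cell. Ereg, the EGF family ligand epiregulin, read 10.77 and 11.32 in the pre-granulosa arrays against 4.86 and 4.64 in the Sertoli arrays. Foxl2os, the transcript on the opposite strand beside Foxl2, read 11.65 and 11.44 against 5.71 and 4.08. Drp2, a relative of dystrophin, read 10.77 and 11.07 against 5.66 and 5.61. In each of them both pre-granulosa arrays stood far above both Sertoli arrays, and only for Foxl2os were the Sertoli arrays more than 1 log2 unit apart. Ereg fell by 6.29 ± 0.24, Foxl2os by 6.65 ± 0.52 and Drp2 by 5.29 ± 0.19 in Sertoli cells (adjusted p = 5.08e-04, 0.00232 and 5.08e-04 by limma). Dclk1, a microtubule-binding kinase, fell by 5.88 ± 0.40; its 8 other probe sets gave -0.17 to -5.63, 3 of them called. Wnt9a, a Wnt ligand, fell by 5.06 ± 0.30, and Csgalnact1, which starts chondroitin sulphate chains, by 5.05 ± 0.24. Rasgrp1, which activates Ras in response to diacylglycerol, fell by 4.94 ± 0.37, the calcium buffer gene Calb1 by 4.64 ± 0.15 and the phospholipase gene Pld1 by 4.53 ± 0.28. The last 2 of the 12 are Ccdc182, a coiled-coil gene (-5.35 ± 0.40), and Gpr155, a lysosomal membrane protein gene (-5.14 ± 0.37). Dimmer probe sets were called as well for Rtn4rl1 (3.86), Col14a1 (3.38), Csgalnact1 (-4.19) and Pld1 (-3.90), whereas those of Fgf13 (0.14), Wnt9a (0.10) and Calb1 (-0.33, 0.17 and -0.33) were not.

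**Figure D1:**
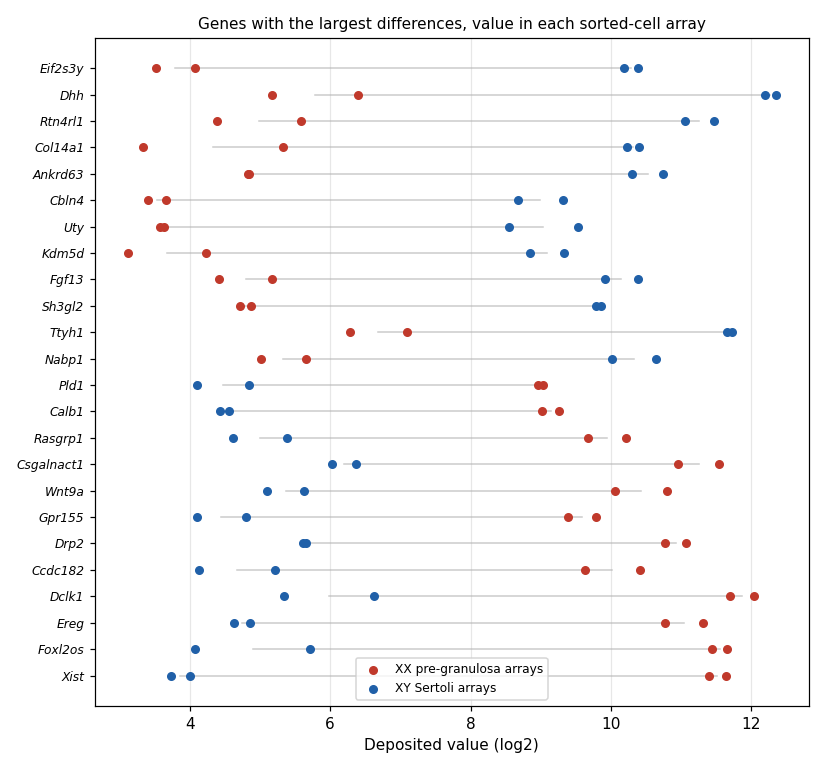
Deposited log2 value in each sorted-cell array (horizontal axis) of the 12 genes with the highest differences, above, and the 12 with the lowest, below, among genes called with and without a weight per group. Each point is 1 array, red for XX pre-granulosa and blue for XY Sertoli cells, and the grey line joins the 2 group means; the colours lie apart in every row, from 6.49 for Eif2s3y to -7.65 for Xist.

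Most Sertoli cell genes rose in the Sertoli arrays. Of 26 measured members of the Sertoli list, 16 were called higher and 0 lower (24 at an unadjusted p under 0.05), against 1.62% of all genes called higher. The members of this and the other lists were chosen with earlier results of these data known. Their counts therefore describe the lists and give no independent support. The median difference was 2.82 against 0.04 over all genes. In every one of the 4 pairings of a Sertoli with a pre-granulosa array, 25 of the 26 were higher, against 4408 of all 18193 genes. Besides Dhh and Cbln4 they include Ptgds, which makes prostaglandin D2 and read 8.39 and 9.17 against 13.66 and 13.64, a rise of 4.87 ± 0.33. Cst9, a secreted cystatin, read 7.45 and 9.19 against 13.23 and 13.32, a rise of 4.96 ± 0.52. Sox10, a close relative of Sox9, read 5.32 and 5.80 against 10.05 and 9.83 and rose by 4.38 ± 0.21. Gdnf, the growth factor on which spermatogonial stem cells later depend, read 4.38 and 4.19 against 7.95 and 7.92 and rose by 3.65 ± 0.14. Amh read 5.40 and 5.06 against 7.93 and 8.08, a rise of 2.77 ± 0.17. For each of Ptgds, Cst9, Sox10, Gdnf and Amh the Sertoli arrays lay closer together than the pre-granulosa arrays, and no Sertoli array came near a pre-granulosa array.

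Some of the best known Sertoli genes were less clear. Hsd17b3, which makes testosterone from androstenedione, read 3.93 and 7.58 in the pre-granulosa arrays and 12.73 and 12.54 in the Sertoli arrays, so that its difference of 6.88 ± 1.05 was not called (adjusted p = 0.0190 by limma). Sox9, the central factor of the testis pathway, read 9.46 and 10.56 against 11.53 and 11.95, which gives 1.73 ± 0.37 and no call (adjusted p = 0.0541). Sox8, its partner, read 5.05 and 6.35 against 7.93 and 8.27, at 2.40 ± 0.50 (adjusted p = 0.0510), and Aard differed by 2.98 ± 0.69 without a call. For all 4 genes the arrays of the 2 groups did not overlap; for Hsd17b3, Sox9, Sox8 and Aard alike, pre-granulosa replicate 1 was the lower of its group. The number of Sertoli genes called was 15 without pre-granulosa replicate 1, 18 without replicate 2, 9 and 4 without Sertoli replicates 1 and 2, 10 without an ovary array, 7 without a testis array and 12 with a weight per group.

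Pre-granulosa genes had the opposite sign. Of 15 measured members, 5 were called lower in Sertoli cells and 0 higher (12 at an unadjusted p under 0.05), against 1.05% of all genes called lower, and the median difference was -3.58. These members, too, were chosen with earlier results of these data known. All 15 had negative differences, and 13 were lower in each of the 4 pairings of arrays, against 3476 of all 18193 genes. Foxl2, which maintains granulosa identity, read 8.99 and 9.65 in the pre-granulosa arrays and 5.19 and 5.43 in the Sertoli arrays. Wnt4, the Wnt ligand of the fetal ovary, read 10.73 and 9.69 against 6.33 and 6.25. Gng13, a G protein gamma subunit, read 9.58 and 9.20 against 5.66 and 5.56. No pre-granulosa array of these genes came within 3 log2 units of a Sertoli array. Foxl2 fell by 4.01 ± 0.27, Wnt4 by 3.93 ± 0.37, Gng13 by 3.78 ± 0.22. Sprr2d, a small proline-rich protein gene, fell by 2.37 ± 0.28. Fst, which binds activin, read 11.15 and 12.88 against 6.83 and 4.17; its difference of -6.52 ± 0.95 was not called (adjusted p = 0.0159), whereas a dimmer probe set of the gene was (-5.17, adjusted p = 8.90e-04). Irx3, a homeobox factor of the ovary, differed by -4.77 ± 0.61 and Rspo1, which strengthens Wnt signals, by -3.35 ± 0.57, neither called (adjusted p = 0.0109 and 0.0261). The number of pre-granulosa genes called was 7 without either pre-granulosa array, 2 without Sertoli replicate 1 or either ovary array, 1 without Sertoli replicate 2 or either testis array, and 3 with a weight per group. Second probe sets of Foxl2 and Dhh with lower signal showed no comparable difference (-0.42 and 0.55, not called).

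Among transcription factors, 1 to 3 members of each list were called, where 2.67% of all genes were. Of 19 Sox genes, Sox10 and Sox6 were higher and 0 were lower; Sox6, a Sox factor known from cartilage, read 3.95 and 4.67 against 7.93 and 7.65 and rose by 3.48 ± 0.26. Of 30 forkhead genes, Foxd2 was higher (2.89 ± 0.33, with 0.03 from its dimmer probe set) and Foxl2 lower. Of 48 homeobox genes, Hoxd10 rose by 2.58 ± 0.18, Pbx3, a partner of Hox proteins, fell by 2.24 ± 0.18, and Lhx9 fell by 4.43 ± 0.21. Lhx9, which the early gonad needs in order to form, read 9.84 and 9.57 in the pre-granulosa arrays against 5.18 and 5.36 in the Sertoli arrays. It was 1 of 2 called among 17 early gonad factors (median 0.10), the other being Podxl, which encodes a sialomucin of the cell surface (-2.35 ± 0.19). The rest of that list stood much closer: Wt1 read 12.24 and 12.42 against 12.52 and 12.32, overlapping between the groups. Gata4 differed by 0.67 ± 0.13 (adjusted p = 0.0417), Nr5a1, the steroidogenic factor, by 1.29 ± 0.33 (adjusted p = 0.0876) and Emx2 by -1.64 ± 0.25 (adjusted p = 0.0196), none of them called. Among 32 zinc finger and related factors 1 was called, Dmrt1, which guards the male fate of Sertoli cells; it read 7.33 and 6.43 against 9.31 and 9.30 and rose by 2.42 ± 0.29. Without Sertoli replicate 2, 1 member of the Sox list and 1 of the homeobox list were called and 0 of the forkhead and zinc finger lists.

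Of 33 measured members of the G2 and M phase list, genes of mitosis, 16 were called higher in Sertoli cells and 0 lower (33 at an unadjusted p under 0.05). Over all genes 1.62% were called higher. All 33 read above the pre-granulosa value in each of the 4 pairings of arrays, against 4408 of all 18193 genes. The median difference was 2.67, against 0.04 over all genes. Hmmr, a spindle protein, read 4.10 and 5.45 in the pre-granulosa arrays and 9.56 and 9.92 in the Sertoli arrays. Ccnb2, a mitotic cyclin, read 4.89 and 5.21 against 8.71 and 9.32. Cdk1, the kinase that drives entry into mitosis, read 6.07 and 7.13 against 10.26 and 10.76. Every Sertoli array exceeded every pre-granulosa array by 3 log2 units or more in these genes. Hmmr rose by 4.97 ± 0.43, Nusap1, a spindle assembly gene, by 4.64 ± 0.54, the checkpoint kinase gene Bub1 by 4.33 ± 0.44, Ccnb2 by 3.97 ± 0.24 and Cdk1 by 3.91 ± 0.37. Tpx2 and Ect2, at 4.44 ± 1.33 and 4.01 ± 1.17, missed the threshold; pre-granulosa replicate 1 read 4.35 and 4.39 while replicate 2 read 9.02 and 8.45. A dimmer probe set of Tpx2 was called (4.15, adjusted p = 0.00191 by limma).

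Pre-granulosa replicate 1, the array with the largest 3′ over 5′ signal, was lower than replicate 2 in 21 of the 33 genes. Over all 33 the median of replicate 1 minus replicate 2 was -0.66. Its part in the difference was measured by leaving it out: 20 of the 33 genes were then called and the median difference was 2.49. Without pre-granulosa replicate 2 the values were 20 and 2.72, without Sertoli replicate 1 they were 5 and 2.77, and without Sertoli replicate 2 they were 2 and 2.53. Without an ovary array 2 were called, without a testis array 1, and with a weight per group 9. The median thus stayed between 2.49 and 2.77 when 1 sorted array was left out, whereas the number of calls moved from 20 to 2. In whole gonads the median of the same genes was 0.37, testis minus ovary.

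**Figure D2:**
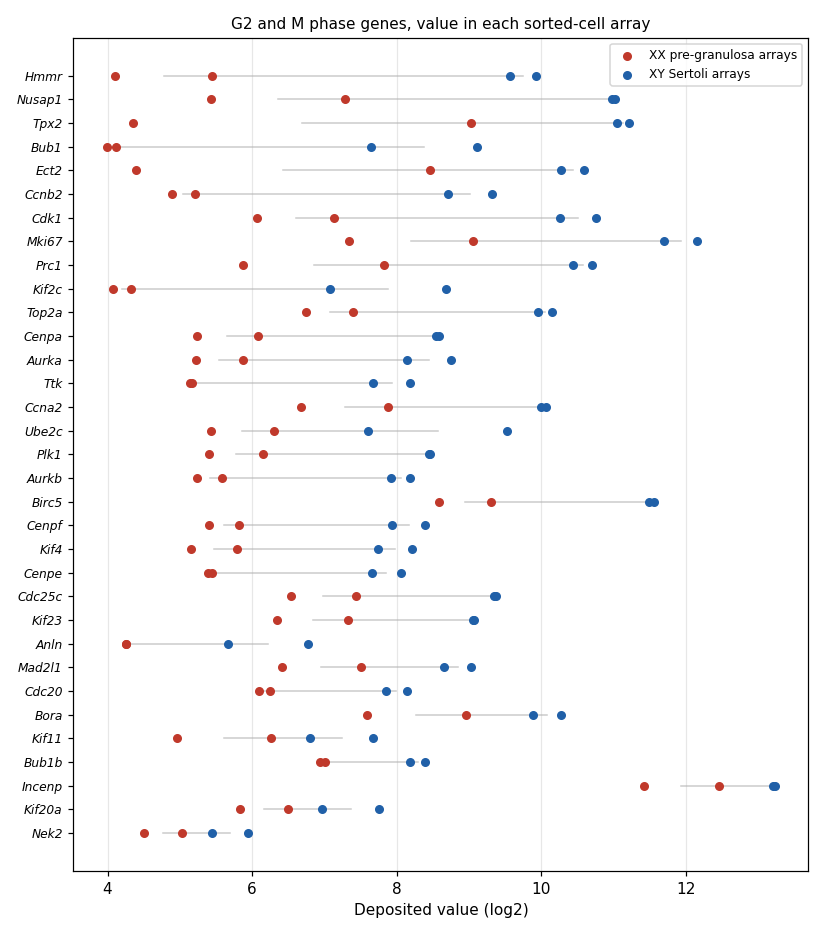
Deposited log2 value in each sorted-cell array (horizontal axis) of the 33 measured G2 and M phase genes, ordered by their difference. Each point is 1 array, red for XX pre-granulosa and blue for XY Sertoli cells, and the grey line joins the 2 group means; in every row both blue points lie to the right of both red points.

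Of 26 S phase genes, which copy the DNA, 4 were called higher and 0 lower, against 1.62% and 1.05% of all genes. With a weight per group 0 were called. The median difference was 1.38, and 22 of the 26 had positive differences in all 4 pairings, against 4408 of all 18193 genes. Gins1, of the replicative helicase complex, rose by 1.93 ± 0.23, Pole, the leading strand polymerase, by 1.91 ± 0.20, the flap nuclease gene Fen1 by 1.81 ± 0.20 and Mcm7, a helicase subunit, by 1.47 ± 0.15. The S phase count was 6 and 9 without pre-granulosa replicate 1 and 2 and 0 without any one of the other 6 arrays. Of 19 cell cycle brakes and D cyclins, E2f7, a repressor of E2F target genes, was the 1 called (2.67 ± 0.20). For Cdkn1b, which encodes the inhibitor p27, the brightest probe set read 12.13 and 13.02 in the pre-granulosa arrays against 11.29 and 10.73 in the Sertoli arrays, which gives -1.57 ± 0.33 and no call (adjusted p = 0.0510). Another Cdkn1b probe set read 12.34 and 13.06 against 8.41 and 7.64 and was called (-4.67 ± 0.40, adjusted p = 0.00317). Both had all pre-granulosa arrays above all Sertoli arrays, but they give very different sizes. Of 15 p53 and apoptosis genes limma called 0 (4 at an unadjusted p under 0.05), with a median of 0.18.

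Promoters of G2 and M phase genes are known to carry CCAAT boxes, bound by the factor NF-Y, and a cell cycle homology region near the start site, with TTTGAA as its core. The promoters below belong to 4 of the called genes and are shown because these letters recur in them. They are RefSeq sequences of the mouse build GRCm38.p6, from 250 bases before to 50 bases after the start site, written 5′ to 3′ on the strand of the gene. Capitals mark CCAAT, its reverse complement ATTGG, and TTTGAA. Ccnb2 lies on the minus strand at chr9:70421505-70421804, Cdk1 on the minus strand at chr10:69352863-69353162, Hmmr on the minus strand at chr11:40733388-40733687 and Plk1, a mitotic kinase, on the plus strand at chr7:122159185-122159484.
Ccnb2: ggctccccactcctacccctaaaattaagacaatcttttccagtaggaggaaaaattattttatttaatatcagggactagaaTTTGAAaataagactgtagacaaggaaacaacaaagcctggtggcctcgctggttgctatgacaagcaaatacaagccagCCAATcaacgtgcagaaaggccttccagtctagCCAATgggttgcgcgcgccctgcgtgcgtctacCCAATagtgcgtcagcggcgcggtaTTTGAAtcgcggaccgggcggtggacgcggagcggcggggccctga
Cdk1: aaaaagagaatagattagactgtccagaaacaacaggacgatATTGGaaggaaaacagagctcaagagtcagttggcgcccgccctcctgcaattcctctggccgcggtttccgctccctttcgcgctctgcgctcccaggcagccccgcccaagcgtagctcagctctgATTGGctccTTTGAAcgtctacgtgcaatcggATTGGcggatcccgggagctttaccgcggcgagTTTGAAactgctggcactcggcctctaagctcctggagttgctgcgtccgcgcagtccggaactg
Hmmr: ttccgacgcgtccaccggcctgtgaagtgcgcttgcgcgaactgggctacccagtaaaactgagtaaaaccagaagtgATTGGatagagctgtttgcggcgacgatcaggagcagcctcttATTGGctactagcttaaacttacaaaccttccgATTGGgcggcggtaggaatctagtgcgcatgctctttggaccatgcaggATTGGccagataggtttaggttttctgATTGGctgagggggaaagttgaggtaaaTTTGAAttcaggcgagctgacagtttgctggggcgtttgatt
Plk1: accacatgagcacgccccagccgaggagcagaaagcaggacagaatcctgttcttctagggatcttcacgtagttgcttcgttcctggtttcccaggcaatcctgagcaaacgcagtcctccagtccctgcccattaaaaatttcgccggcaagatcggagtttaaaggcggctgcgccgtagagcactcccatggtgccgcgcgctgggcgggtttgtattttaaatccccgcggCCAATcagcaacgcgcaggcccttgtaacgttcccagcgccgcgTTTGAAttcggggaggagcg

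In Ccnb2 the 3 CCAAT matches begin at -87, -54 and -21 from the start site and the nearer TTTGAA at 5. Cdk1 has 3 reverse matches at -208, -80 and -48 and TTTGAA at -71 and -15. Hmmr has 5 reverse matches between -172 and -20 and TTTGAA at 9. Plk1 has a single CCAAT at -14 and TTTGAA at 31, and its transcript read 6.15 and 5.41 in the pre-granulosa arrays against 8.44 and 8.46 in the Sertoli arrays, a rise of 2.67 ± 0.26. Plk1 was named after its values were seen. RefSeq gave 28 promoters for 26 genes of the list, and 18109 promoters for 14452 of the 18193 measured genes; both strands were searched, and matches of CCAAT and TTTGAA can share at most an end base. Both motifs occurred together in 20 of the 28 (71.4%), against 5.23% of all 18109. CCAAT alone was held by 82.1% against 37.4%, and TTTGAA by 78.6% against 13.4%. Among promoters of all genes called higher in Sertoli cells 11.8% held both, and 8.39% once the G2 and M phase list was taken out. Among genes called lower 4.29% did. The Sertoli list, in contrast, had both motifs in 0 of its 19 promoters. Core words of other factors were less frequent in promoters of both sets of called genes than in all promoters. AACAAT, a Sox core, was in 6.92% of promoters of genes called higher, 6.87% of those called lower and 7.29% of all. The shares for AAGGTCA, an Nr5a1 core, were 3.81%, 3.0% and 3.92%. TGTTTAC, a forkhead core, was in 2.08%, 2.15% and 2.98%, and AGATAA, bound by Gata factors, in 6.92%, 5.15% and 8.09%. A match describes letters in a window and does not show binding.

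Secreted signals and their receptors gave 0 to 4 calls per pathway list of 15 to 40 genes. Over all genes 2.67% were called, and counts this small are given for the single genes and not as results about the pathways. In the Wnt list, 3 of 33 genes were lower (Wnt9a, Wnt4 and Sp5, a Wnt target, at -2.29 ± 0.21) and 1 was higher, the Wnt-binding protein gene Sfrp4 (3.03 ± 0.37); with a weight per group only Wnt9a was called. Axin2, another Wnt target, read 9.33 and 10.996 against 6.90 and 6.27, with no call (-3.58 ± 0.52, adjusted p = 0.0162 by limma). Of 40 TGF-beta, BMP and activin genes, Inhbb, a subunit of inhibin B and activin B, and Amh were higher and 0 were lower. Inhbb read 7.88 and 7.37 in the pre-granulosa arrays against 10.94 and 10.89 in the Sertoli arrays and rose by 3.29 ± 0.20. Bmp2 read 11.36 and 10.28 against 6.48 and 7.87, which gives -3.64 ± 0.53 and no call. Of 15 hedgehog genes only the ligand Dhh was called; the coreceptor Boc differed by -4.33 ± 0.63 without a call (adjusted p = 0.0156).

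In the FGF list, 2 of 20 genes rose, Fgf13 and the FGF response factor Etv5 (4.13 ± 0.51). The call of Etv5 rests on its brightest probe set, as the others gave 0.31 and 0.21, and it is lost with a weight per group. The FGF feedback inhibitor Spry4 read 4.10 and 5.18 against 8.73 and 8.78 and was not called by its brightest probe set (4.11 ± 0.57, adjusted p = 0.0136). Fgfr2, the FGF9 receptor of the early gonad, differed by -3.36 ± 0.45 (adjusted p = 0.0123), and a dimmer probe set was called at -4.66 (adjusted p = 0.00252). Ereg was the 1 called of 15 EGF family genes, while the receptor gene Erbb3 differed by 3.16 ± 0.70 without a call. Igf2, a growth factor, was the 1 called of 20 insulin and IGF genes; it read 11.72 and 12.42 against 9.53 and 9.68 and fell by 2.47 ± 0.24. Of 26 PDGF, VEGF, chemokine and related genes, Gdnf was higher, and the vasodilator peptide adrenomedullin, Adm (-3.15 ± 0.26), and Il6st, the shared receptor chain gp130 (-2.78 ± 0.22), were lower. Limma called 0 of 19 Notch genes (5 at an unadjusted p under 0.05), and the largest difference was 2.84 ± 0.48 for the Notch-modifying enzyme gene Lfng.

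Cytokine and interferon genes gave 3 calls of 23 measured, where 2.67% of all genes were called. Ifitm1 and Ifitm3, interferon-induced membrane proteins also known from early germ cells, fell by 2.69 ± 0.18 and 2.98 ± 0.30, and Socs2, a brake on growth hormone signals, rose by 3.32 ± 0.31. Kitl, the ligand that germ cells receive through Kit, read 11.14 and 11.45 against 10.75 and 10.87 by its brightest probe set (-0.49 ± 0.16, adjusted p = 0.166 by limma), while another of its probe sets was called at -2.91 (adjusted p = 0.00580). Without Sertoli replicate 2, 1 gene was called in each of the Wnt, hedgehog, FGF, EGF and PDGF lists, and 0 in the TGF-beta, insulin and cytokine lists.

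Guidance genes, first described in growing axons, gave 3 calls, where 2.67% of all genes were called. Of 49 measured, Rtn4rl1 and Sema3g (1.64 ± 0.18) were higher and Sema3a (-1.81 ± 0.20) was lower. Robo1, a receptor for Slit proteins, read 4.86 and 8.14 in the pre-granulosa arrays against 11.68 and 11.82 in the Sertoli arrays, and its difference of 5.25 ± 0.94 was not called. Efnb2 differed by 3.18 ± 0.59, also without a call, and its dimmer probe sets gave -0.87, 0.18 and 0.32. The guidance count was 3 and 5 without pre-granulosa replicates 1 and 2, 1 and 0 without Sertoli replicates 1 and 2, and 1 without any gonad array.

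Genes of small molecule signals changed in both directions. In retinoid metabolism, Cyp26b1, which degrades retinoic acid and so shields male germ cells from meiosis, read 6.37 and 6.03 against 9.46 and 8.68 and rose by 2.87 ± 0.29. Aldh1a1, which makes retinoic acid, rose by 1.22 ± 0.14, and Dhrs3, which turns retinaldehyde back into retinol, fell by 3.30 ± 0.24. Thus 3 of 18 retinoid genes were called, against 2.67% of all genes. The retinoid count was 1 without either pre-granulosa array, 0 without any one of the other 6 arrays and 1 with a weight per group. Ptgds was the 1 called of 16 prostanoid genes. Esr1, the oestrogen receptor alpha gene, was the 1 called of 17 hormone receptor genes; it read 9.12 and 8.81 against 6.11 and 5.52 and fell by 3.15 ± 0.30. Gng13 was the 1 called of 27 genes of G proteins and their regulators. Gna14, a G protein alpha subunit, read 8.74 and 9.63 against 6.66 and 4.55 without a call, and another of its probe sets was called at -3.47 (adjusted p = 0.00177 by limma).

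Most called collagen chains were higher in Sertoli cells, while the differences of all 30 were 18 positive and 12 negative. Of 30 chains measured, 7 were higher in Sertoli cells and 1 was lower, with a median of 0.27. Over all genes 1.62% were called higher and 1.05% lower. The higher ones were Col14a1, the 3 chains of collagen IX, namely Col9a3 (4.89 ± 0.58), Col9a1 (4.77 ± 0.57) and Col9a2 (3.07 ± 0.24), and Col2a1, Col27a1 and Col18a1 (3.32 ± 0.32, 3.05 ± 0.25 and 3.0 ± 0.34). Collagens II, IX and XXVII are best known from cartilage, and collagen XVIII from basement membranes. Col9a3 read 7.61 and 7.96 in the pre-granulosa arrays against 12.70 and 12.64 in the Sertoli arrays, and Col9a1 5.62 and 7.29 against 11.19 and 11.26. All Sertoli arrays of the 2 genes lay at least 3 log2 units above all pre-granulosa arrays. Col12a1, a fibril-associated chain, fell by 3.80 ± 0.41. Col1a1, the main collagen of stroma, read 7.23 in pre-granulosa replicate 1 and 11.42, 11.55 and 11.27 in the other 3 arrays. Col27a1 and Col9a2 and their values were named after they were seen. The collagen count was 5 and 8 without pre-granulosa replicates 1 and 2, 4 and 0 without Sertoli replicates 1 and 2, 2 without an ovary array, 1 without a testis array and 1 with a weight per group.

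Basement membrane, matrix and junction genes gave further single calls, where 1.62% of all genes were called higher and 1.05% lower. Of 38 basement membrane genes, 4 were higher, Col18a1, the laminin chain gene Lama4 (2.91 ± 0.22), the integrin gene Itgb8 (2.43 ± 0.22) and Dag1, dystroglycan (1.52 ± 0.16). The call of Dag1 rests on its brightest probe set, as its 3 others gave -0.15 to -0.23. Npnt, nephronectin, fell by 1.76 ± 0.20. The basement membrane count was 3 and 4 without pre-granulosa replicates 1 and 2 and 0 without any one of the other 6 arrays, and 1 with a weight per group. Of 35 other matrix genes, Fbln2, a fibulin, rose by 3.04 ± 0.35, the glypican gene Gpc2 fell by 1.38 ± 0.14, and Thbs2, a thrombospondin, fell by 4.39 ± 0.25 from 10.36 and 11.04 to 6.18 and 6.44. Of 43 junction genes, the connexin 26 gene Gjb2 read 6.34 and 6.44 against 11.32 and 10.79 and rose by 4.67 ± 0.29, and the tight junction gene Cgn, cingulin, fell by 2.08 ± 0.23. Among 43 proteases, Ctsl, a lysosomal cathepsin, Adam12, a membrane-anchored metalloprotease, and Capn6, a calpain relative without protease activity, rose by 2.98 ± 0.25, 2.88 ± 0.15 and 2.85 ± 0.29, and 0 fell. Dimmer probe sets of Adam12 and Capn6 gave 0.53 and 0.05, not called. Among 31 protease inhibitors, Cst9, Spint2 (2.89 ± 0.26) and Serpina5 (2.74 ± 0.20) were higher, and Serping1, the complement C1 inhibitor (-2.79 ± 0.32), and Reck (-1.33 ± 0.16) were lower. Without Sertoli replicate 1 the protease and inhibitor counts were 2 and 1, and without replicate 2 they were 1 and 0. Of 19 intermediate filament genes limma called 0 (7 at an unadjusted p under 0.05).

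Among transporters and channels, the shares called were near the 2.67% of all genes for amino acid carriers and channels, and larger for other carriers. Slc38a5, a carrier of glutamine and other amino acids, read 3.89 and 3.79 in the pre-granulosa arrays against 8.73 and 8.78 in the Sertoli arrays and rose by 4.92 ± 0.20, the 1 called of 31 amino acid transport genes. Cacna1d, a voltage-gated calcium channel gene, read 12.46 and 12.57 against 8.55 and 7.79 and fell by 4.35 ± 0.28. The potassium channel gene Kcnh1 rose by 3.42 ± 0.26; these were the 2 called of 55 channel genes. Of 47 other carriers and pores, 7 were higher and 0 lower: Abcg1, a cholesterol exporter (2.78 ± 0.31), the water channel Aqp5 (2.60 ± 0.32), the sodium-proton exchanger Slc9a2 (2.48 ± 0.16), the phosphate carriers Slc20a1 and Slc34a2 (2.33 ± 0.26 and 2.26 ± 0.20), the inositol carrier Slc5a3 (2.21) and the glucose carrier Slc2a4 (1.41). Slc5a3 and Slc2a4 were named after their values were seen. The median of these 47 genes was 0.20, and their count was 7 and 10 without pre-granulosa replicates 1 and 2, 1 and 0 without Sertoli replicates 1 and 2, 1 without an ovary array, 0 without a testis array and 1 with a weight per group, against 0.956% of all genes called with that weight.

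Metabolic and housekeeping lists held from 0 to 5 called genes each, where 2.67% of all genes were called. Of 32 cholesterol and lipid genes, 4 were higher, the fatty acid binding protein genes Fabp5 (2.22 ± 0.15) and Fabp3 (1.75 ± 0.20), the lipase gene Lpl (1.65 ± 0.14) and Me1, malic enzyme (1.5 ± 0.17). Of 41 redox and detoxification genes, 5 were higher, among them the glutathione transferase genes Gsta2 (2.43 ± 0.24) and Gsta4 (2.16 ± 0.17), Akr1b8, an aldose reductase relative (1.88 ± 0.15), and Gpx3, a secreted glutathione peroxidase (1.42 ± 0.14). The lipid and redox counts were 2 and 3 without pre-granulosa replicate 1, 4 and 5 without replicate 2, 1 and 0 without Sertoli replicate 1, and 0 and 0 without Sertoli replicate 2 or a testis array; with a weight per group they were 1 and 2. Limma called 0 of 16 glycolysis genes (11 at an unadjusted p under 0.05, median 0.53), 0 of 31 respiratory chain genes (6, median 0.22), 0 of 22 ribosomal protein genes (2, median -0.03) and 0 of 21 heat shock and unfolded protein genes (8, median 0.42). Over all genes 22.4% had an unadjusted p under 0.05. Ccn2, a matricellular growth factor gene, was the 1 called of 23 immediate early genes (2.40 ± 0.28, list median 0.57). Of 17 hypoxia genes, Adm and the histone demethylase gene Kdm3a (-1.65 ± 0.18) were lower, with a median of -0.11. Ezh2, the polycomb methyltransferase, rose by 1.61 ± 0.13 and, with Kdm3a, was 1 of the 2 called of 29 chromatin genes.

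Of 32 imprinted genes measured, 4 were lower in Sertoli cells and 0 higher, against 1.05% of all genes called lower. The 4 were Igf2, Inpp5f (-2.10 ± 0.23), Peg3 (-1.35 ± 0.13) and Mest (-1.19 ± 0.15). Of the 32, 23 had negative differences, with a median of -0.40. The 2 pre-granulosa arrays differed from each other by more, with a median of -0.54 for replicate 1 minus replicate 2. Replicate 1 was the lower of them in 21 of the 32 genes. The largest positive value was that of Dlk1, a Notch family ligand, at 1.83 ± 0.32 (not called, adjusted p = 0.0284 by limma). The imprinted count was 3 without either pre-granulosa array, 0 without any one of the other 6 arrays and 1 with a weight per group. In whole gonads the median of the list was 0.01. By position, the share of genes called ranged from 1.74% on chromosome 18 to 4.01% on chromosome 5 among the autosomes and was 3.40% on the X chromosome, where 21 of 617 genes were called. Of 12 X-linked dosage genes limma called Xist alone, and 2 of the 12, Xist included, had an unadjusted p under 0.05. Jpx and Zfx differed by -1.13 ± 0.26 and 0.97 ± 0.44 by their brightest probe sets. Dimmer probe sets of Zfx gave 0.05, -1.94 and -0.69 and a dimmer one of Jpx gave -0.04, none of them called.

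**Figure D3:**
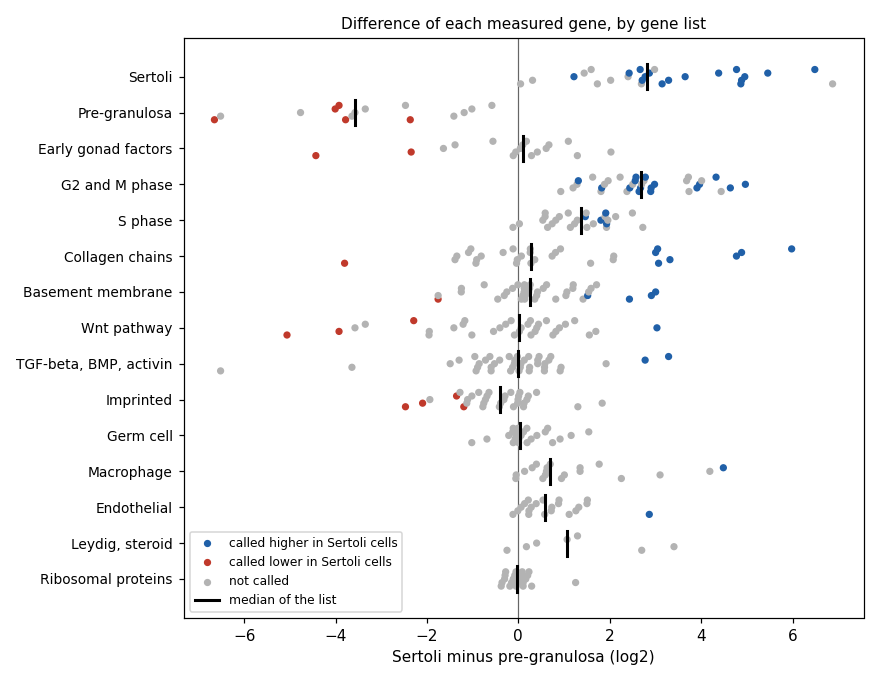
Sertoli minus pre-granulosa difference in log2 units (horizontal axis) of each measured member of 15 gene lists. Each point is 1 gene, blue if called higher in Sertoli cells, red if called lower and grey if not called, and the black bar is the median of the list, from -3.58 for pre-granulosa genes to 2.82 for Sertoli genes.

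Markers of other cells were read in the same arrays, where 2.67% of all genes were called. Germ cell genes were on average low in all 4 sorted samples: the mean log2 value of 24 of them was 5.34 and 5.08 in the pre-granulosa arrays and 5.23 and 5.56 in the Sertoli arrays, but 9.31 and 9.32 in ovaries and 8.92 and 8.84 in testes. The medians of whole arrays also differed between the sets, at 5.57 to 5.61 in sorted cells and 5.96 to 5.99 in gonads. Gaps in level between the 2 sets, here and below, are therefore not exact sizes. Ddx4, a germ cell RNA helicase, read 3.13, 3.75, 3.40 and 4.66, all under the 4.78 seen for Y-linked genes in XX arrays. Not every member was so low: Piwil2, a gene of the piRNA pathway, read 7.07 and 7.60 in the pre-granulosa arrays against 8.73 and 9.02 in the Sertoli arrays, a difference of 1.54 ± 0.22 without a call (adjusted p = 0.0143 by limma). Limma called 0 germ cell genes (4 at an unadjusted p under 0.05). Of 21 meiotic genes, the cohesin gene Rec8 and the synaptonemal gene Sycp3 were lower in Sertoli cells, by -3.56 ± 0.29 and -2.31 ± 0.26. Rec8 read 11.29 and 10.42 in the pre-granulosa arrays, whose germ cell list averaged 5.34 and 5.08.

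Macrophage genes read higher on average in both Sertoli arrays, and most in replicate 2. Their mean over 19 genes was 5.21 and 5.09 in the pre-granulosa arrays and 5.93 and 6.93 in Sertoli replicates 1 and 2. In all 4 pairings of arrays 10 of the 19 were higher and 0 lower, against 4408 and 3476 of all 18193 genes. By limma 2.67% of all genes were called. Csf1r, the receptor that macrophages need, read 5.38 and 3.65 against 6.54 and 10.86, so that Sertoli replicate 2 lay far above replicate 1, and the difference was not called (4.19 ± 1.33, adjusted p = 0.155 by limma). C1qb, a complement gene of macrophages, read 4.69 and 5.75 against 9.21 and 10.21 and was the 1 called of 19; it lost its call with a weight per group. Mrc1, a mannose receptor of macrophages, read 3.94 and 3.75 against 6.62 and 7.27, a difference of 3.10 ± 0.44 without a call (adjusted p = 0.0148). Endothelial genes had means of 5.15 and 5.96 against 6.17 and 6.39, with the vascular receptor gene Robo4 the 1 called of 21; Pecam1 read 4.34, 4.71, 4.57 and 4.76. Genes of steroid-producing Leydig cells averaged 7.20 and 6.78 against 7.82 and 8.67, well under the testes at 10.11 and 9.89, and limma called 0 of 7 (4 at an unadjusted p under 0.05). Cyp17a1, the enzyme that makes androgens, read 6.32 and 5.58 against 8.69 and 10.03, a difference of 3.41 ± 0.47 (adjusted p = 0.0136).

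Limma called 0 members in the lists of interstitial (17 genes, median 0.20), perivascular (13, 0.29), erythroid (11, -0.03), mesonephric (11, 0.21), surface epithelium (13, 0.03) and neural genes (9, 0.12); 4, 4, 1, 3, 4 and 1 of them had an unadjusted p under 0.05. Of the mesonephric list, Ret read 9.13 and 11.08 in the pre-granulosa arrays against 3.97 and 8.04 in the Sertoli arrays, without a call. The part that other cells played in the differences was not tested. Measured without Sertoli replicate 2, the array with the higher macrophage and Leydig values, the median difference was 2.88 for the Sertoli list, 2.53 for the G2 and M phase list and -3.45 for the pre-granulosa list, and that of the macrophage list moved from 0.70 to 0.29.

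Whole gonads, on arrays of their own, showed most of the called differences with the same sign and smaller size. The genes were chosen by their differences in sorted cells, and that choice by itself favours smaller values in gonads. Testis minus ovary called 64 genes (0.352%), 43 higher (0.236%) and 21 lower (0.115%). Of the 294 genes called higher in Sertoli cells, 258 (87.8%) were positive in testis minus ovary, 23 were called the same way and 0 the opposite way, and the median was 0.69 in gonads against 2.59 in sorted cells. Of the 191 called lower, 173 (90.6%) were negative in gonads, 15 were called the same way and 0 the opposite way, with medians of -0.97 and -2.45. Over all genes 58.8% had the same sign in both comparisons. The 2 comparisons share no array, though both use the same pooled spread.

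How much of a difference appeared in gonads varied from gene to gene. Cbln4 and Calb1 were as large there (6.07 and -4.73, testis minus ovary) as in the sorted cells. Dhh gave 5.50 and Ptgds 6.08. Fgf13 and Sh3gl2, above 5 in sorted cells, gave 1.22 and 1.15, and Drp2 gave -1.47. Dmrt1 read the same in both organs (-0.00), and Hmmr, Ccnb2 and Cdk1 gave 0.42, 0.39 and 0.63. A direct test of the difference between the 2 comparisons called 0 genes with limma (0%), with a lowest adjusted p of 0.0253 and 2367 genes at an unadjusted p under 0.05, so no gene can be said to differ between the sorted cells and the organs at that threshold.

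**Figure D4:**
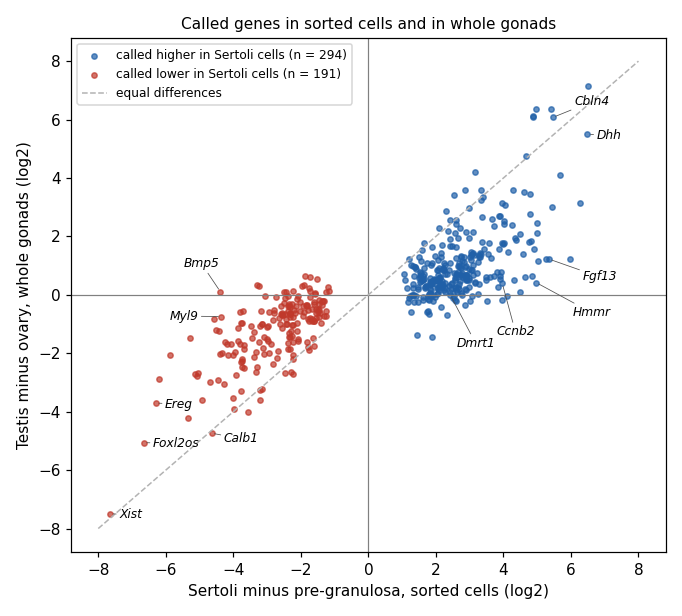
Difference of each called gene in sorted cells (horizontal axis, Sertoli minus pre-granulosa, log2) against whole gonads (vertical axis, testis minus ovary, log2), blue for the 294 genes called higher in Sertoli cells and red for the 191 called lower. The dashed line marks equal differences; most points lie between it and the horizontal axis, with 258 of the blue points above 0 and 173 of the red points below 0.

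The calls depend on how the spread is estimated and on single arrays. A limma fit to only the 4 sorted arrays called 0 genes (0%), with a lowest adjusted p of 0.0614 and 2673 genes at an unadjusted p under 0.05; on simulated data that fit found 0% of true differences of 4 log2 units. Leaving out pre-granulosa replicate 1 gave 511 calls, of which 314 are among the 485, and leaving out replicate 2 gave 916, of which 384 are. Without Sertoli replicate 1 there were 187 calls and without replicate 2 there were 64, of which 134 and 54 are among the 485. Dimmer probe sets of Cacna1d (-0.16), Inhbb (-0.11), Igf2 (-0.55), Gng13 (0.52) and Lhx9 (-0.90 to -2.49) were not called. Of the 485 genes, 40 were called in all 8 omissions of 1 array and 73 in none. Of the 134 called genes named here or under the closing observations, 26 were called in all 8: Eif2s3y, Uty, Cbln4, Ankrd63, Fgf13, Sh3gl2, Nabp1, Slc38a5, Gjb2, Sox10, Ccnb2, Gdnf and Adam12 in the higher group, and Xist, Ereg, Drp2, Wnt9a, Csgalnact1, Calb1, Pld1, Lhx9, Thbs2, Cacna1d, Myl9, Itpr2 and Agtr1a in the lower. Another 13 were called in none of the 8, namely Aldh1a1, Cyp26b1, Dag1, Foxd2, Mcm7, Me1, Robo4 and Sema3g, which were higher, and Cgn, Col12a1, Mest, Npnt and Reck, which were lower.

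With a weight per group 76 of these 134 genes were called. The other 58 lost the call. Among genes of cell identity, transcription and signalling these were Wnt4, Sprr2d, Dmrt1, Foxd2, Etv5, Sp5, Sfrp4, Adm, Esr1, Cyp26b1, Aldh1a1, Sema3a, Sema3g, Robo4, C1qb, Ccn2, Kdm3a and Ezh2. Among genes of the cell cycle, meiosis and replication they were Bub1, Cep55, Ndc80, Gins1, Pole, Fen1, Mcm7 and Sycp3. Among matrix, junction and protease genes they were Col2a1, Col9a1, Col9a2, Col9a3, Col12a1, Col18a1, Col27a1, Itgb8, Dag1, Npnt, Fbln2, Gpc2, Cgn, Capn6, Serpina5, Serping1 and Reck. The remaining 15 were Abcg1, Aqp5, Slc20a1, Slc34a2, Slc5a3, Slc2a4, Ryr1, Fabp3, Lpl, Me1, Gsta2, Gpx3, Inpp5f, Peg3 and Mest. Of the 82 called and named genes with more than 1 probe set, 28 had another one called in the same direction and 54 had none, and in 42 every other probe set gave less than 50% of the difference of the brightest.

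**Figure D5:**
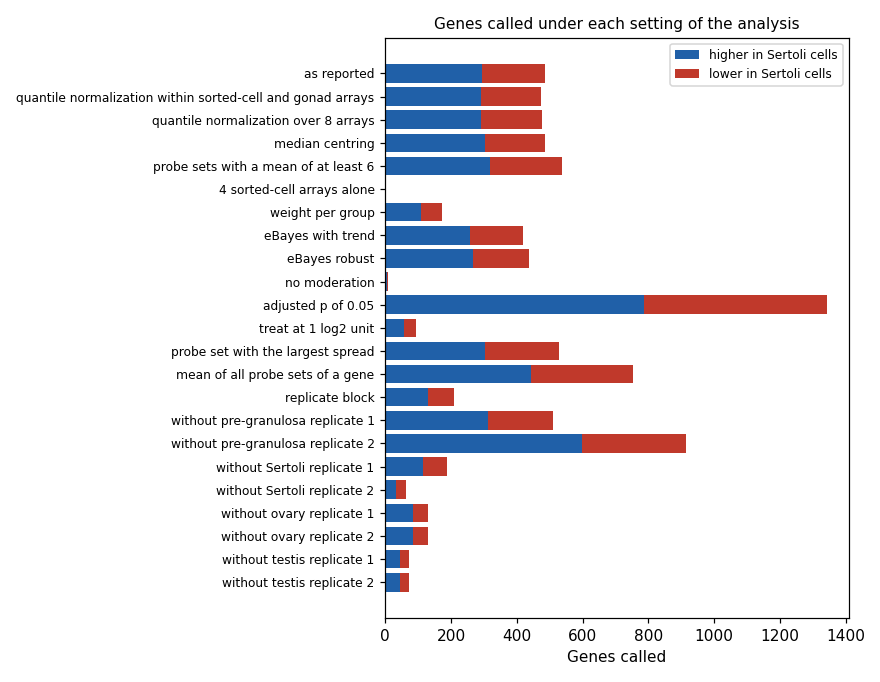
Number of genes called (horizontal axis) under each setting of the analysis, blue for genes higher in Sertoli cells and red for genes lower. The bars run from 0 with the 4 sorted-cell arrays alone to 1343 at an adjusted p of 0.05, against 485 as reported.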

How the data were processed

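The study holds 8 Affymetrix Mouse Genome 430 2.0 arrays, 2 per group, and the 4 of sorted cells enter the comparison. The deposited values are log2 signals for which the submitters' processing notes name RMA, with no version. The authors' own test (R/maanova at 1% false discovery, per the series text) was not used here. Ranked values differed by at most 0.18 within the 4 sorted-cell arrays and 0.15 within the 4 gonad arrays, so values were used as deposited. Between the sets the medians differed, at 5.57 to 5.61 in sorted-cell arrays and 5.96 to 5.99 in gonad arrays. The 2 sets appear to have been normalized separately, which no label records.

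From 45101 probe sets 64 controls were left out. Of the 45037 tested, 34945 had a single gene symbol, 932 several and 9160 none. A gene stands for its brightest probe set by the mean of 8 arrays (18193 genes, 9010 with more than 1 probe set). Symbols matched the RefSeq table of GRCm38.p6 by gene identifier for 34741 probe sets, and 0 changed.

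limma 3.58.1 in R 4.3.3 fitted 1 mean per group over 8 arrays with eBayes (4 residual degrees of freedom), with two-sided p-values, Benjamini-Hochberg adjustment over 45037 probe sets and calls at 0.01. On simulated data, with 200 of 45037 probe sets changed in each of 10 runs, this gave 4.2 false calls per run. Since only part of the 200 was recovered, these false calls were a larger share of all calls than the threshold of 0.01 allows. The fit over 8 arrays was thus too liberal on such data. The 58 gene lists (1551 entries, 1438 measured) are described by counts and medians, with no test of a list. The members and lists were chosen with earlier results of these data known. Named genes are the 12 highest and 12 lowest differences among genes called with and without a weight per group, without clone names; up to 5 called and 2 uncalled members of each list with a call; 1 member of each other list; and 19 fixed identity and marker genes. Exceptions are stated. Alternatives were other normalizations, filters, spreads, thresholds, probe set rules, a replicate block and omission of each array.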

Additional observations from a re-analysis of the deposited data

How the results depend on the processing

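Among the counts of genes called, higher and lower (485, 294 and 191 as reported), normalization, centring, a filter at a mean of 6, eBayes with trend or robust and the probe set with the largest spread kept each within 1.5 times; the range over these was 420 to 538 calls. The spread and the threshold moved them more. The 4 sorted arrays alone gave 0, 0 and 0, a weight per group 174, 109 and 65, no moderation 8, 4 and 4, an adjusted p of 0.05 1343, 786 and 557, a test against 1 log2 unit (treat) 94, 57 and 37, and the mean of all probe sets of a gene 754, 443 and 311. Leaving out 1 array gave 64 to 916 calls, 34 to 599 higher and 27 to 317 lower; the lowest total was without Sertoli replicate 2 and the highest without pre-granulosa replicate 2. None of the 485 genes was called in the opposite direction in any of these settings. Dag1 changed sign with the probe set of largest spread (-0.23, adjusted p = 0.722 by limma). With that probe set 480 of the 485 genes kept their sign. No other of the 113 called genes named by the stated rule changed sign in these settings. Called genes named outside that rule were not followed singly.

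The replicate block, which treats the replicate number as a pairing, gave 209, 129 and 80 calls. Deviations of same-numbered pre-granulosa and Sertoli arrays correlated at 0.00944 over genes, and the 6 pairs of groups ranged from -0.156 to 0.0493. As each group has only 2 arrays, these values cannot tell whether same-numbered samples shared a litter or sort. The labels do not say, and it was not tested. With 2 arrays per group, precision is limited by their number, and 371 genes with a difference above 2 log2 units were not called.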

Other observations

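Called genes outside the lists include further genes of cell division and of DNA replication and repair, all higher in Sertoli cells and all named after their values were seen. Cep55, which acts in the last step of cell division, read 3.52 and 4.02 in the pre-granulosa arrays and 7.67 and 9.59 in the Sertoli arrays, a difference of 4.86 ± 0.58 from background. Cdca5, which holds sister chromatids together, rose by 3.96 ± 0.33, and the kinetochore genes Nuf2, Spc25 and Ndc80 rose by 3.90 ± 0.32, 3.85 ± 0.39 and 2.59 ± 0.30. Aspm, of the spindle poles, rose by 3.81 ± 0.39, the replication checkpoint gene Clspn by 3.08 ± 0.17 and Brca1 by 2.72 ± 0.17. In whole gonads these genes differed by -0.19 (Cdca5) to 0.79 (Aspm), testis minus ovary.

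Some other called genes were named in the same way, most of them lower in Sertoli cells. Myl9, a myosin light chain of smooth muscle and other contractile cells, read 12.08 and 12.19 in the pre-granulosa arrays and 7.88 and 7.68 in the Sertoli arrays and fell by 4.35 ± 0.20. Cald1, caldesmon, fell by 2.23 ± 0.16, and Cav1, of membrane caveolae, by 3.80 ± 0.34. Mylk, myosin light chain kinase, went the other way and rose by 2.99 ± 0.29. The calcium release channel genes Itpr2 and Ryr1 fell by 4.18 ± 0.20 and 3.86 ± 0.39, and the angiotensin receptor gene Agtr1a by 4.16 ± 0.21. Testis minus ovary gave -0.74 for Myl9 and 0.13 for Cald1. In the list of perivascular and muscle genes limma called 0 of 13 (4 at an unadjusted p under 0.05). Bmp5, a BMP ligand, fell by 4.39 ± 0.28 in sorted Sertoli cells and differed by 0.11 in gonads, and the difference between these was not called (adjusted p = 0.0345 by limma).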
